A study of Mus musculus with 4 samples.

Results

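Histone genes are described here by the Trim33 peaks found at them in T helper 17 (Th17) cells. The members were the protein-coding genes whose RefSeq symbol (GRCm38.p6, the same assembly as mm10) starts with Hist and a digit, or with H1f, H2ac, H2bc, H3c or H4c and a digit. There were 67 such genes among 21887 protein-coding genes. They comprised 10 H1 genes, 17 H2A genes, 16 H2B genes, 12 H3 genes and 12 H4 genes. The series held 2 libraries of chromatin immunoprecipitated with an antibody to Trim33 and 2 libraries of input DNA. Both kinds came from C57BL/6 Th17 cells, which had been made in culture from naive CD4+ T cells of spleen and lymph nodes. Those cells had been stimulated on plates coated with anti-CD3 and CD28, with IL-6, TGF-b and antibodies to IL-4 and IFN-g. The labels give no age or sex of the mice and no second genotype or treatment, so binding was described along the genome and not between conditions. What was deposited is a single file of 27050 peaks from the pooled Trim33 replicates, so no value has a replicate error and the depth of each library is unknown. A binding profile holds no expression values, so markers of the cell type could not be checked.

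Core histones H2A, H2B, H3 and H4 form the nucleosome that packs DNA, and H1 histones bind the linker DNA between nucleosomes. Most of their genes are short, lack introns, lie in clusters and are transcribed in S phase, when new chromatin is assembled. H2A and H2B genes often lie head to head and share the promoter between them. Trim33 is a chromatin-associated ubiquitin ligase that reads histone H3 tails and works with SMAD proteins in TGF-beta signalling. Of the members, 63 lay in clusters, 10 on chromosome 3 and 53 in 3 blocks of chromosome 13, and 4 H1 genes lay alone.

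Trim33 peaks were found at the ends of 17 of the 67 histone genes. A gene-end summit is a peak summit within 1000 bp of either end of the gene. The share was 25.4% (95% exact binomial interval 15.5 to 37.5%), beside 33.4% of all protein-coding genes, and the background share lay inside that interval. The interval covers counting error only and takes genes as separate draws, which neighbours sharing a summit are not. A wider count took the locus, that is the gene and 10 kb of flank to either side. By this count 37 histone genes (55.2%, interval 42.6 to 67.4%) held a summit, beside 53.9% of all protein-coding genes. Thus 17 members had a gene-end summit, 20 had a summit in the locus only and 30 had none.

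The promoters of members at the higher gene-end peaks are shown first, with the known promoter elements of histone genes marked. The windows of H4c3, H4c8 and H2bc18 contain the summit, and those of H4c1 and H1f0 do not. Each holds 250 bases before the annotated start and 50 from the start on, 5′ to 3′, from RefSeq (GRCm38.p6). Capitals mark the TATA box (TATAAA), the CCAAT box (CCAAT, bound by NF-Y), the octamer (ATTTGCAT, bound by Oct-1), the H4 element (GGTCCG), the H1 box (AAACACA) and the CRE (TGACGTCA), on either strand. None of these letter strings contains another. The H4c11 promoter, the first H4 gene of chromosome 13 with no summit in its locus, is given for comparison.
H4c3: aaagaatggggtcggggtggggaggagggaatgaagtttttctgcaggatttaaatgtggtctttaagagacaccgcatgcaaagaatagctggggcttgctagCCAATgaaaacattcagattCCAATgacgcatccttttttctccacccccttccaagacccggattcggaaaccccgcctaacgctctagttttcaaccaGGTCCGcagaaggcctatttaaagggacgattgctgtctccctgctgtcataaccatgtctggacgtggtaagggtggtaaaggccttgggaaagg
H4c8: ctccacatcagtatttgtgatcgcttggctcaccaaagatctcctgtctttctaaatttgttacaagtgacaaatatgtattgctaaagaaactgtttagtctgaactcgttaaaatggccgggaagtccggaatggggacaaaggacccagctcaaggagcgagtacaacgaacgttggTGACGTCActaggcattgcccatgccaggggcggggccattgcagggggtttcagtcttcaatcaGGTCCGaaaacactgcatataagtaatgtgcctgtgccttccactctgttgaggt
H4c1: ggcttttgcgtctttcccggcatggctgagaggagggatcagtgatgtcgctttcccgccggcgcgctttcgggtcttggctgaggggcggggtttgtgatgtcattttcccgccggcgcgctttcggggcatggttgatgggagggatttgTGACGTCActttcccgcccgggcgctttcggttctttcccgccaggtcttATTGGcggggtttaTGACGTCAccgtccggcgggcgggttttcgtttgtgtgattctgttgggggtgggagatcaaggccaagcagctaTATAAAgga
H2bc18: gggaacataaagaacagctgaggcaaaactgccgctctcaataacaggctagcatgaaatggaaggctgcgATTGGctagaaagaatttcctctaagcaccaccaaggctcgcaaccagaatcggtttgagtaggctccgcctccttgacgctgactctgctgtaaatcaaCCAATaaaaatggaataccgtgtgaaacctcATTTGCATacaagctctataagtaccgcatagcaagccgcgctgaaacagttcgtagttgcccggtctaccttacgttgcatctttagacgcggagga
H1f0: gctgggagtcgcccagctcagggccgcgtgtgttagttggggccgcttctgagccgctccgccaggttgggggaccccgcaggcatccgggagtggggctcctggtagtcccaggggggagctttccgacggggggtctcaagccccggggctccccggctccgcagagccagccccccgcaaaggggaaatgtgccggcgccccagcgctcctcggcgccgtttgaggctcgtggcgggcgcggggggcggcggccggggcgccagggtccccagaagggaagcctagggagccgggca
H4c11: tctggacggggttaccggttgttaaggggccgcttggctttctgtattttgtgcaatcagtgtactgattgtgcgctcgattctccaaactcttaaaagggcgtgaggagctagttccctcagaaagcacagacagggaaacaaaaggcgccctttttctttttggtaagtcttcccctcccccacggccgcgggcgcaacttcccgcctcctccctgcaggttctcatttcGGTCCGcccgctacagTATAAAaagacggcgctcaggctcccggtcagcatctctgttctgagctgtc

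The windows shown are chr13:23698409-23698708 (minus strand) for H4c3, chr13:23530794-23531093 (plus) for H4c8 and chr13:23761200-23761499 (minus) for H4c1. Those of H2bc18, H1f0 and H4c11 are chr3:96269450-96269749, chr15:79027962-79028261 and chr13:21734784-21735083, all on the plus strand. Positions are counted from the annotated start, with 0 at its first base and positive values downstream, and a motif is placed by its first letter. H4c3 had the H4 element at -46 and CCAAT boxes at -146 and -126. H4c8 had the H4 element at -5 and a CRE at -70. H4c1 had CREs at -98 and -34, a CCAAT box at -48 and a TATA box at 41, downstream of the annotated start, and its H4 element was not found in the window. H2bc18 had the octamer at -48 and CCAAT boxes at -179 and -79, and the H1f0 window had none of the motifs in capitals. H4c11, which had no summit, also had the H4 element, at -18, and a TATA box at -2. All these distances rest on the annotated starts.

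H4 genes had the largest number of members with a gene-end summit. They were H4c1, H4c3, H4c4, H4c8 and H4c14, 5 of 12 (41.7%, interval 15.2 to 72.3%). H4c3 had a peak of 6.63-fold enrichment at chr13:23698351-23698555, with the summit 24 bp downstream of the start. H4c8 had 5.92-fold enrichment at chr13:23530912-23531168, with the summit 6 bp upstream of the start next to the H4 element. H4c4 had 4.02-fold enrichment at chr13:23581454-23581610, with the summit 29 bp upstream. Each of these summits lay at the 5′ end and was within 1000 bp of 1 histone gene alone. The H4c8 summit also lay 110 bp from the lncRNA gene Gm11335. H4c14, on chromosome 3, had a summit of 4.02-fold, 101 bp beyond the gene (chr3:96263303-96263763). This peak was 461 bp wide, the widest at a histone gene end. The other 7 H4 genes had no gene-end summit. H4c2 and H4c9 had summits in the locus only, and H4c6, H4c11, H4c12, H4c17 and H4c18 had none.

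H1 genes, which encode linker histones, had gene-end summits at 4 of 10 members (40%, interval 12.2 to 73.8%). H1f0, a linker histone gene that lies alone on chromosome 15, had the highest gene-end peak of any member, 6.67-fold at chr15:79028341-79028578, with the summit 221 bp downstream of the start. It ranked 10262 of the 27050 peaks by fold. H1f4 had 2 summits, of 4.67-fold at 37 bp downstream of its start and of 4.16-fold 23 bp past its 3′ end. H1f1 had 3.97-fold enrichment 126 bp downstream of its start. H1f2 had 2.97-fold enrichment 11 bp before its 3′ end, which was the lowest gene-end peak of the members and ranked 26809. At H1f2 the summit was thus at the 3′ end, 713 bp from the start, and at H1f4 both ends held a summit. H1f6, the testis linker histone gene, had its nearest summit 1889 bp from an end. The other 5 H1 genes, namely H1f3, H1f5, H1f7, H1f8 and H1f10, had no summit in the locus.

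H2B and H2A genes had fewer gene-end summits in relation to their number. H2B genes had 4 of 16 (25%, interval 7.27 to 52.4%), namely H2bc4, H2bc6, H2bc18 and H2bc21. H2A genes had 2 of 17 (11.8%, interval 1.46 to 36.4%), namely H2ac20 and H2ac21. H2bc18 had 5.15-fold enrichment at chr3:96269623-96269824, 15 bp downstream of its start. The peak at chr3:96220809-96220977 had 4.46-fold enrichment and lay between H2ac20 and H2bc21. Its summit was 22 bp upstream of the start of H2ac20, 170 bp from the lower end of H2bc21 and 548 bp past the 3′ end of H2ac21. H2bc4 had a summit of 5.01-fold that lay 348 bp inside its upper end, in an annotated gene body longer than those of most histone genes. H2bc6, annotated over 37455 bp, was counted only through the 4.16-fold summit next to H1f4, 630 bp from its upper end. These 6 genes rested on 4 summits, and those counted for H2ac21, H2bc21 and H2bc6 lay closer to another histone gene.

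H3 genes, whose products carry the tails that Trim33 reads, had gene-end summits at 2 of 12 members (16.7%, interval 2.09 to 48.4%). H3c1 shared a peak of 6.49-fold enrichment with the H4 gene H4c1, at chr13:23761232-23761642. Its summit lay between the genes, 295 bp upstream of the start of H4c1 and 341 bp from the lower end of H3c1. H3c13 was counted through the H2bc18 summit, which lay 560 bp past its 3′ end. No summit lay within 1000 bp of the start of any of the 10 H3 genes with a known start. That is 0 of 10, for which the 95% exact interval reaches 30.8%, beside 34.8% of all protein-coding genes with a known start. The interval again takes neighbouring genes as separate draws. The H2bc18 summit lay 1061 bp from the start of H3c13, just outside the window. In H3c14 and H3c15 80.8% of the promoter window was shared with other copies, as described below. H3c1 and H3c7 had no known start, so the summit near H3c1 did not enter this count. It lay 341 bp and 842 bp from the ends of H3c1, thus within 1000 bp of the start on either strand. The 0 of 10 therefore leaves out an H3 gene with a summit near its start. The gene-end intervals of the 5 histone types overlapped one another and all held the background share of 33.4%, so the order of the types is a description.

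**Figure D1:**
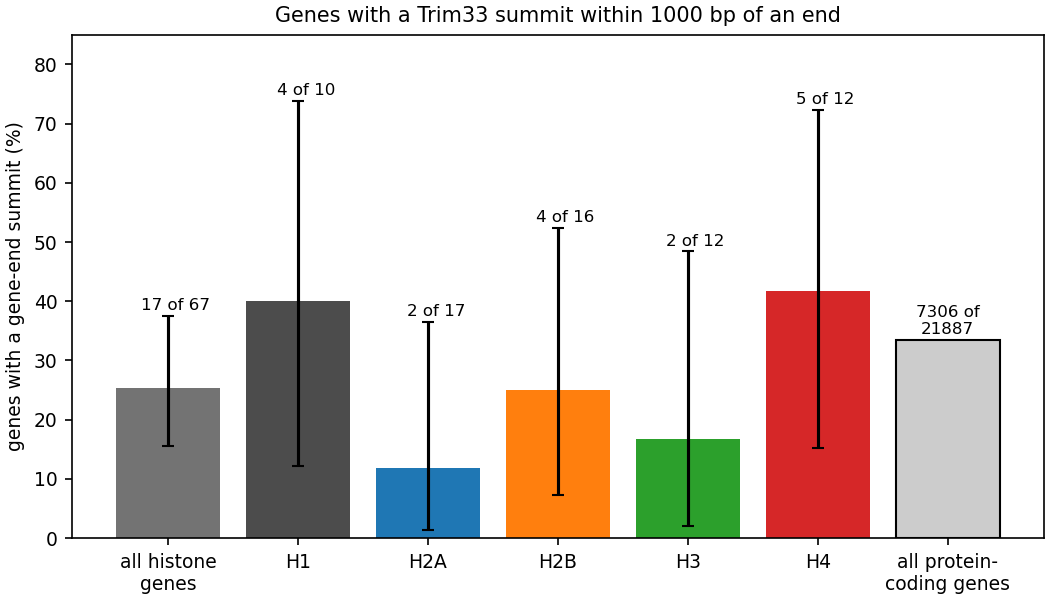
Share of genes with a Trim33 summit within 1000 bp of either end, in percent, for all histone genes, each histone type and all protein-coding genes. Bars are shares with their counts above, and error bars are 95% exact binomial intervals. H1 and H4 genes stood at 40% and 41.7% and H2A genes at 11.8%, and every interval held the 33.4% of all protein-coding genes.

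The 17 genes rested on 13 distinct summits, of which 4 lay at ends of more than 1 histone gene. The summit nearest to the limit on the inside was that of H2bc6 at 630 bp, and the next outside belonged to H1f6 at 1889 bp. Position relative to the start could be read for the 62 members whose start is in the RefSeq promoter table. H2bc4, H2bc21, H3c1, H3c7 and H4c14 had no entry, and all of these but H3c7 had a gene-end summit. At H3c1 and H4c14 it lay within 1000 bp of both ends, thus of the start on either strand. Leaving these genes out lowers the share that follows. Of the 62 members, 11 (17.7%, interval 9.20 to 29.5%) had a summit within 1000 bp of the start, beside 34.8% of the 17492 protein-coding genes with an entry. That interval, too, takes neighbouring genes as separate draws. In 6 of the 11 members the summit lay within 50 bp of the start: H4c3, H4c4, H4c8, H1f4, H2ac20 and H2bc18. H2bc6 and H1f2 lay at the far side of the window, at 660 bp upstream and 713 bp downstream.

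**Figure D2:**
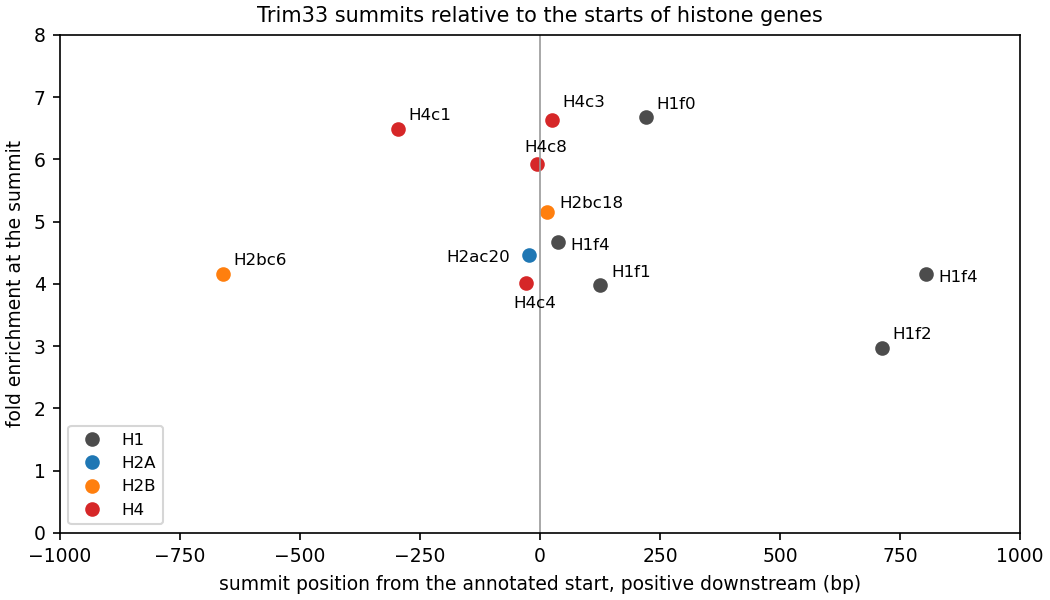
Position of each summit from the annotated start of the histone gene (x axis, bp, positive downstream) against its fold enrichment (y axis), for members with a known start and a summit within 1000 bp of it. Points are coloured by histone type, and a summit within reach of several starts appears once for each. The summits of H4c8, H2bc18, H4c3, H2ac20, H4c4 and H1f4 gather within 50 bp of the start, between 4.02-fold and 6.63-fold, and no H3 gene appears.

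The median enrichment at histone gene ends lay below that of the whole peak list. The fold enrichment is the authors' value, the signal at the summit over its background. The 13 summits ran from 2.97-fold to 6.67-fold with a median of 4.67 (quartiles 4.02 and 5.92). Summits at the ends of other protein-coding genes, 7484 in number, had a median of 5.79 (quartiles 4.69 and 7.51). The median of all peaks was 6.00, and 3 of the 13 summits (23.1%) reached it, namely those of H1f0, H4c3 and H4c1 with H3c1, beside 46.5% of all gene-end summits. None of the 13 reached 10-fold, a value reached by 666 of the 7497 gene-end summits. The −log10 q at the summit had a median of 6.92 at histone gene ends and of 10.6 at the ends of other protein-coding genes. The peaks were also narrower, with a median width of 202 bp against 258 bp. No test was made of these differences, since there is 1 peak list and the peaks are not replicates.

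**Figure D3:**
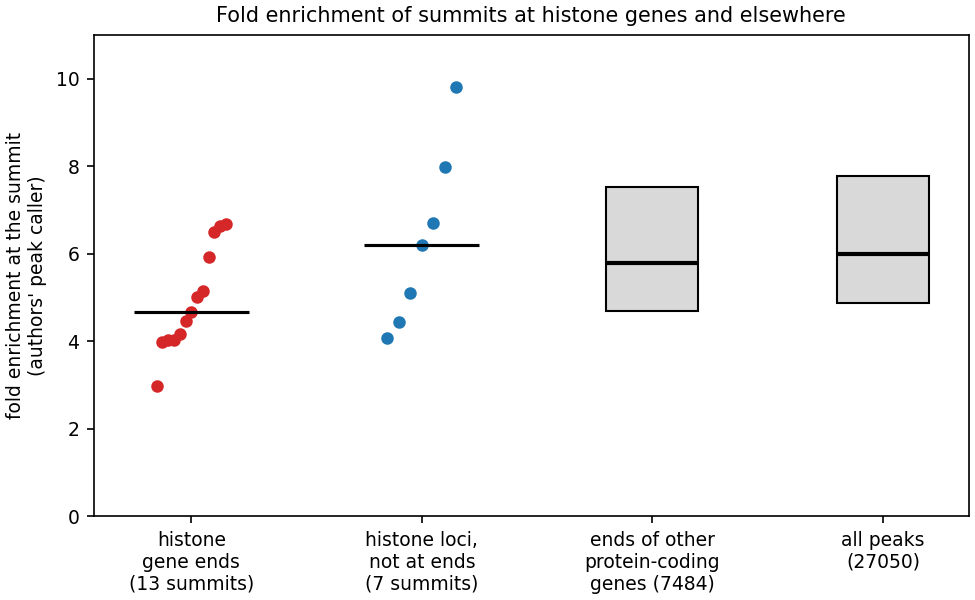
Fold enrichment at the summit (y axis, the authors' values) for the 13 summits at histone gene ends, the 7 other summits in histone loci, the ends of other protein-coding genes and all peaks. Points are single summits with a line at the median, and boxes run between the quartiles with a line at the median. The histone gene-end summits lie between 2.97-fold and 6.67-fold with their median at 4.67, below the lower edge of the box of other gene ends at 4.69.

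Summits were counted by cluster. In the cluster on chromosome 3, from 96219885 to 96270192, 6 of 10 members (60%, interval 26.2 to 87.8%) had a gene-end summit, through 3 summits of 4.02-fold to 5.15-fold. The 4 members in its middle, H3c15, H2ac19, H2ac18 and H3c14, had their nearest summit 16070 bp or more from an end. In the third block of chromosome 13, from 23531044 to 23934913, 10 of 31 members (32.3%, interval 16.7 to 51.4%) had a gene-end summit and 23 (74.2%, interval 55.4 to 88.1%) had a summit in the locus, through 9 and 11 distinct summits. Both intervals for gene ends hold the 33.4% of all protein-coding genes, so those counts do not set either cluster apart. The locus share stands beside 53.9% of all protein-coding genes, but the 23 genes share their 11 summits and are not separate draws. The block held 10 summits, 24.8 per Mb, beside 59.6 per Mb in the chromosome 3 cluster, 8.49 in the first block, 0 in the second block and 10.0 over the genome. All 10 lay between H4c8 and H1f1, a stretch that had 42.9 summits per Mb when the empty remainder was left out after its values were seen. The testis pair H2bc1 and H2ac1 lay 169 kb farther on, and the nearest summit was 148746 bp from H2ac1. The 6 other protein-coding genes inside the block, the iron-uptake regulator Hfe, Trim38 and the transporters Slc17a1, Slc17a2, Slc17a3 and Slc17a4, had no gene-end summit.

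The first block of chromosome 13, from 21715711 to 21833475, held 17 histone genes of all 5 types and no gene-end summit. The 95% exact interval for 0 of 17 reaches 19.5%, beside 33.4% of all protein-coding genes. That interval takes neighbouring genes as separate draws, which they are not. Most of the 17 genes are at most 1000 bp long. Among other protein-coding genes of that length, described below, the share was 7.55%, which lies inside the interval. In 5 of the 17 genes over 50% of the promoter window was shared with other copies, as described below. For the median member the nearest summit was 17934 bp from an end. The block did contain a peak of 14.9-fold enrichment at chr13:21768674-21768979, inside the lncRNA gene Gm11274 and 10992 bp from H1f5. It ranked 571 of the 27050 peaks and was higher than any peak in a histone locus. A second summit, of 6.19-fold, lay 5613 bp below H2bc13 and 482 bp from the tRNA gene n-TGgcc7. It put H2bc13, H2ac13 and H3c10 among the genes with a locus summit. The second block, 5 genes within 8.54 kb, also had no gene-end summit, and the interval for 0 of 5 reaches 52.2%. Next to it lay peaks of 9.81-fold, 2263 bp from H2bc11, and of 7.98-fold, 355 bp from the tRNA gene n-TSgct5. The 9.81-fold peak was the highest in any histone locus and entered the loci of H2bc12, H4c9, H2ac11 and H2bc11.

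**Figure D4:**
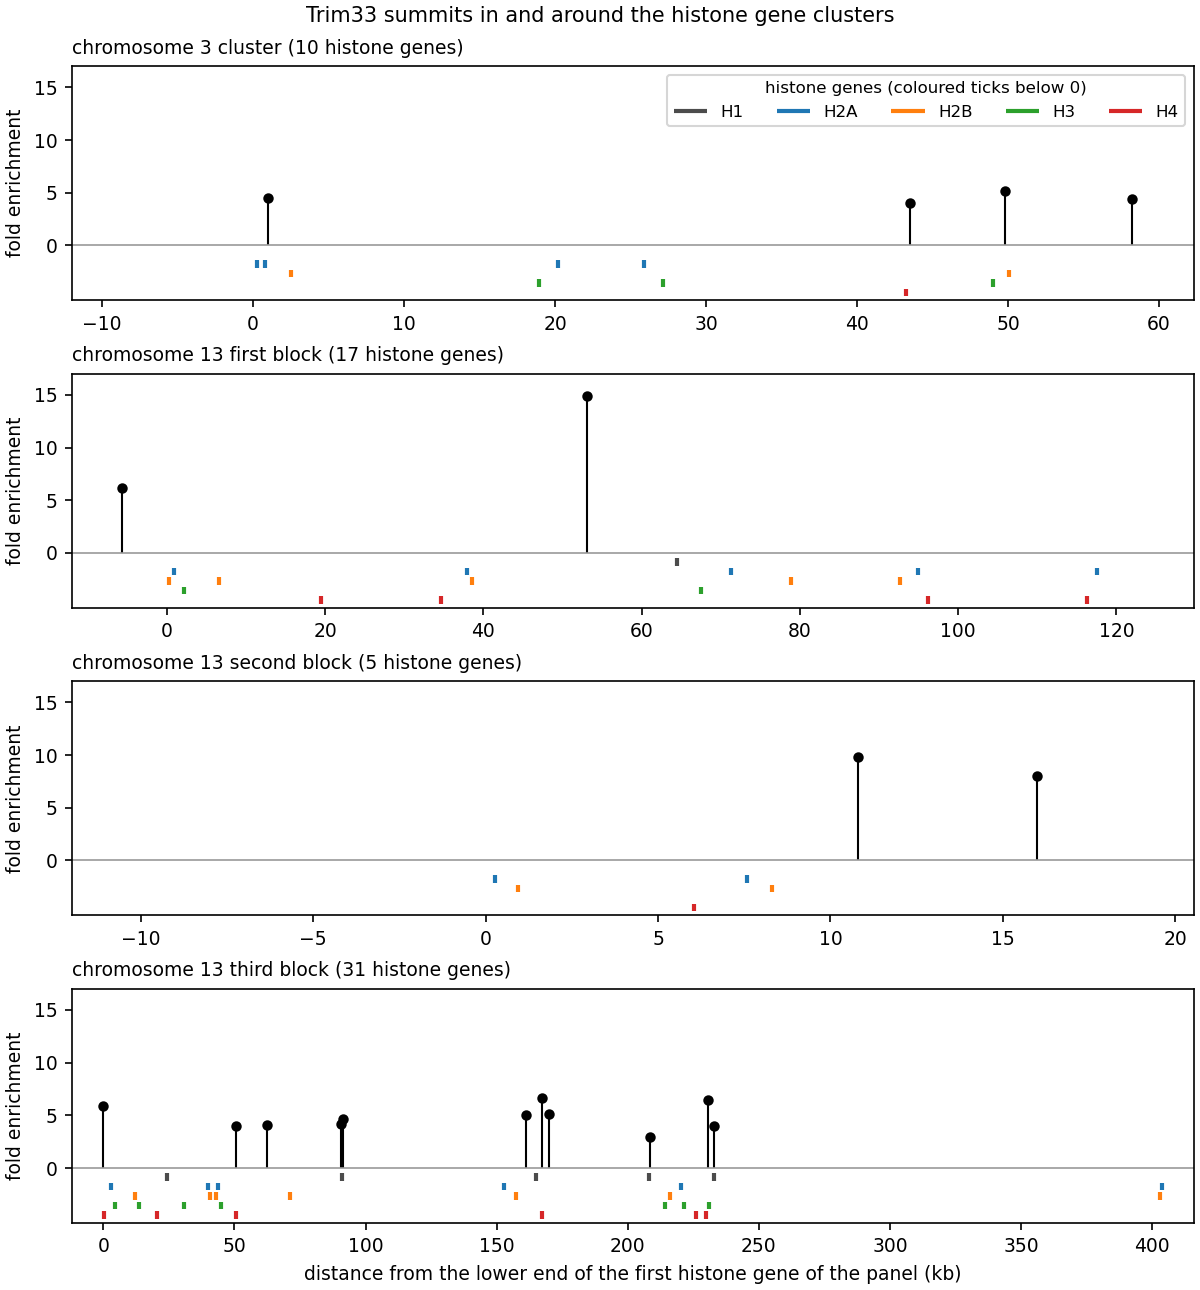
Trim33 summits (black stems, fold enrichment on the y axis) in and within 10 kb of the histone gene clusters, with histone genes as coloured ticks at their midpoints below 0. The x axis is the distance in kb from the lower end of the first histone gene of each panel, on a scale of its own in each panel. Of the 4 summits in the chromosome 3 panel 3 lie at histone gene ends, as do 9 of the 11 in the third block, and in the first block the 14.9-fold summit stands between histone genes.

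Near-identical copies could affect these counts, which was not tested. Histone genes were duplicated often, and reads from identical copies cannot be placed at 1 of them, while the labels do not state how such reads were aligned. Runs of 36 bases were therefore compared between promoter windows, and gene bodies and flanks beyond these windows were not compared. Of the 62 members with a window, 13 shared at least 1 run with a window elsewhere, and in 9 over 50% of the runs were shared. These 9 were H3c14, H3c15, H2ac18 and H2ac19 on chromosome 3, and H2bc23, H2ac23, H4c17, H4c18 and H2ac24 in the first block. None of the 11 members with a summit at the start shared a run. None of the 9 genes had a gene-end summit, so leaving them out could only raise the share. Without them it was 17 of 58 (29.3%), and the first block then had 0 of 12. The part of copy number in the absent peaks was not tested beyond these values.

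Histone genes are also short, with a median length of 496 bp against 17169 bp for all protein-coding genes, which leaves less sequence in which a summit can count. Of the 58 members of at most 1000 bp, 13 (22.4%) had a gene-end summit and 33 (56.9%) a locus summit. Among 278 other protein-coding genes of that length, leaving out Olfr, Vmn, Gm and Rik symbols, the shares were 7.55% and 16.5%. For gene ends, short histone genes thus stood above other short genes and below the 33.4% of all protein-coding genes. For loci they stood above the other short genes and near the 53.9% of all protein-coding genes. The other short genes were chosen by length and symbol alone and may differ in more than length. Histone genes that share a summit are not separate draws. No test was made.

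The letters of known promoter elements were then counted in the 62 promoter windows. The CCAAT box was in 51 histone windows (82.3%, against 42.3% of all 17492 protein-coding windows) and the TATA box in 34 (54.8% against 14.8%). The octamer was in 13 (21% against 1.9%), of which 7 were H2B and 6 were H2A genes. Windows of head-to-head H2A and H2B genes can overlap, as those of H2bc13 and H2ac13 do, so a match can count for both genes. The histone windows are therefore not all separate promoters. The H4 element was in 10 of 11 H4 windows and in 3 others (21% against 12% of all windows). The H1 box was in 5 of 10 H1 windows, 2 H2A windows and 2 H2B windows (14.5% of histone windows against 7.17%). Among motifs of factors active in Th17 cells, the SMAD motif CAGAC was in 41 histone windows (66.1% against 52.5%). The AP-1 letters TGANTCA were in 3 (4.84% against 8.12%), the STAT letters TTCNNNGAA in 2 (3.23% against 8.92%) and the ETS letters GGAAGT in 8 (12.9% against 27.7%). The CRE, added after the sequences had been read, was in 4 (6.45% against 2.54%).

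The same letters were counted in members with and without a summit at the start. The CCAAT box was in 9 of 11 windows with a start summit and in 42 of 51 without. The TATA box was in 5 of 11 and 29 of 51, the octamer in 3 of 11 and 10 of 51, and the H4 element in 3 of 11 and 10 of 51. The SMAD motif was in 6 of 11 and 35 of 51, and the CRE in 2 of 11 and 2 of 51. A match is not a binding site, and its absence says only that the letters are not in this window.

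**Figure D5:**
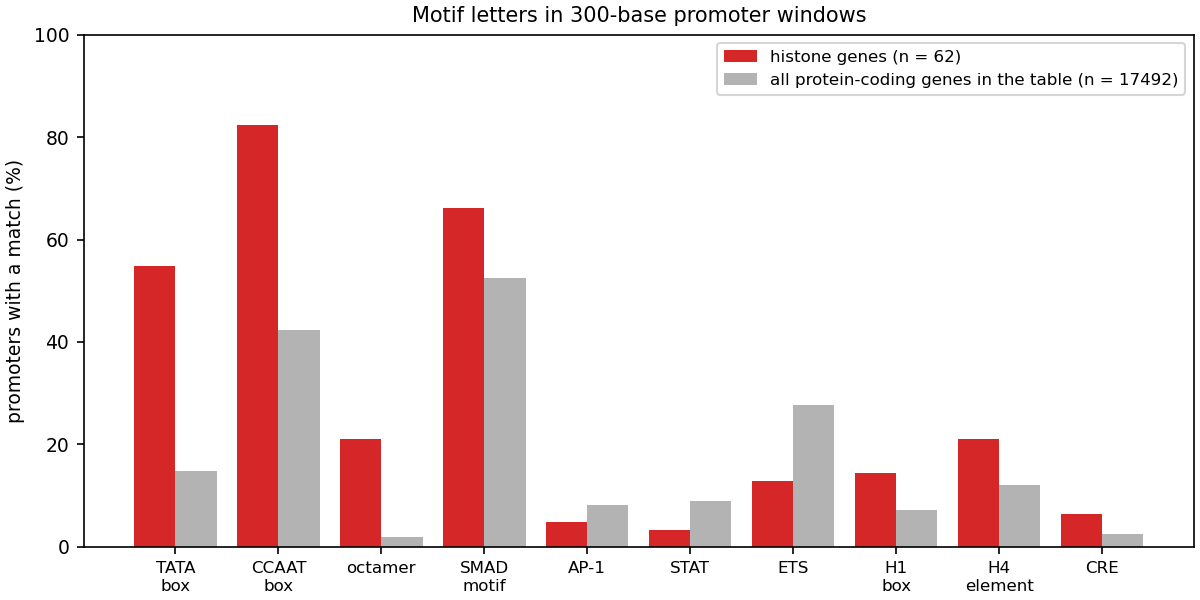
Share of promoter windows (250 bases before to 50 after the start) with at least 1 match to each motif on either strand, in percent, for 62 histone genes (red) and all 17492 protein-coding genes with a window (grey). The CCAAT box stands at 82.3% in histone genes against 42.3%, and the AP-1, STAT and ETS letters are lower in histone genes than over all genes.

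Larger shares were counted for other histone-related genes than for the 67 members. The list of replacement variant histone genes outside the rule had gene-end summits at 6 of 11 members (54.5%). H3f3a, which encodes the replication-independent H3.3, reached 7.16-fold, H2aj 7.04-fold and H2az1, which encodes H2A.Z, 6.58-fold, while H2ax, H3f3b, Macroh2a2, H2ab1 and Hils1 had no gene-end summit. Factors of histone gene transcription and mRNA processing had gene-end summits at 25 of 38 members (65.8%) and a median highest fold of 6.28. In this list Cstf2, of the cleavage machinery, reached 14.6-fold, Nfya, a subunit of the CCAAT-binding NF-Y, 11.3-fold and Lsm11, of the U7 snRNP, 10.5-fold. Npat, the S-phase coactivator of histone genes, had 3.52-fold and Slbp, the stem-loop binding protein of histone mRNA, 6.80-fold enrichment. E2f1, Snrpb and Ncbp1 had no summit in their loci. Histone chaperones had gene-end summits at 17 of 30 members (56.7%), led by Ssrp1 of the FACT complex (10.03-fold), Tonsl (9.58-fold) and Spty2d1 (8.74-fold), while Rbbp7, Cabin1 and Atrx had no summit in their loci. The background for all 3 lists is the 33.4% of protein-coding genes given above, and no test was made against it. The lists were not matched to the 67 members in gene length or copy number.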

How the data were processed

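Chromatin immunoprecipitation with an antibody to Trim33 was sequenced from Th17 cells, with 2 libraries, and input DNA with 2 libraries, per the labels. Trim Galore 0.3.7, Bowtie 1.2.1.1, MACS2 2.1.1.20160309 and the build mm10 are named in the submitters' processing notes. Their settings and the control for calling were not stated there. The authors deposited 1 list of peaks from merged replicates. Its fold enrichment is a ratio over the background, and the deposited −log10 q belongs to the summit. The deposited score repeats the −log10 q (times 10, cut to a whole number, in 100% of the peaks), and the summit position is an offset from the peak start.

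Genes and promoter windows came from RefSeq tables of GRCm38.p6. Distances were computed in Python 3.11.15 (pandas 2.3.3, scipy 1.17.1), with windows of 1000 bp around gene ends and flanks of 10 kb for loci. Clusters were runs of members at most 2 Mb apart, split into blocks at gaps over 200 kb. Counting was tested on simulated data. The members and lists were chosen with earlier results of these data known. The named genes were members with a gene-end summit, the highest of each cluster, members next to the limit, up to 3 members per type without a summit, and for each list the 3 highest and up to 3 without a summit. The other members named, and H4c11, were chosen after their values were seen. No statistical test was made: the list holds no replicates. Intervals of shares are exact binomial intervals at 95%, and that of the median fold comes from the ordered values. Alternatives changed the window, flank, peak set and members.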

Additional observations from a re-analysis of the deposited data

How the results depend on the processing

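Of 39 values recomputed under 12 alternatives, 23 stayed within 1.5 times the reported count or within the interval of the median fold, and 16 moved. With a window of 100 bp, 7 genes and 8 summits counted at gene ends (10.4% of members against 18% of all protein-coding genes). With the annotated start only, 11 of 62 genes did (17.7% against 34.8%), leaving out the members with no known start. With gene bodies alone, 8 genes and 8 summits counted in loci (11.9% against 33%). With flanks of 50 kb, 61 genes had a locus summit (91% against 71.5% of all protein-coding genes). With peaks at or above the median fold, 4 genes and 3 summits remained at gene ends (5.97% of members against 17.2% of all genes). In loci 17 genes and 7 summits remained (25.4% against 35.8%), and the median fold at gene ends was 6.63 by construction. With peaks at or above the median −log10 q these values were 5, 4, 20, 8 and 6.56. The shares were then 7.46% of members against 17.6% of all genes at gene ends, and 29.9% against 35.8% in loci. The share of histone genes at gene ends lay below that of all protein-coding genes under all 10 alternatives that gave it. Adding 5 genes with older Hist symbols, an alternative chosen after seeing the data, gave 19 of 72 (26.4%). No paired analysis was possible because the replicates had been merged before peaks were called, and none could be left out for the same reason.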

Other observations

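Histone genes that carry other current symbols also held peaks. H4f16, an H4 gene on chromosome 6 with an older Hist symbol, had 3 gene-end summits up to 7.63-fold, higher than any gene-end summit of the 67 members. Its neighbour, the variant gene H2aj, had the same highest fold in its locus. H2aw, an H2A gene on chromosome 11, had a summit of 5.09-fold enrichment 22 bp from an end. H2bu2, an H2B gene beside it, had none at its ends and 2 in its locus, up to 9.47-fold. H4bc24, next to the first block of chromosome 13, had no summit in its locus. The pseudogenes H2ac14, H2ac5-ps and H1f11-ps had no gene-end summit. These genes were looked at after the values of the members were known.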
